A study of Mus musculus with 2 samples.

Results

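Of 18 mouse melanoma tumors sequenced as 1 pool, 6 stood apart from the other 12 by the level of interferon-gamma-induced transcripts in their tumor cells, and the 6 are described here against the 12 with weight on genes that did not set the split. The tumors were grown from NMM, a melanoma line of the mouse with a mutated NRAS gene, in Rag-/- mice, which have no T or B cells of their own. The labels give 6 tumors to each of 3 conditions, Mix PBS, Mix + T and Ag-GAS + T, of which PBS is the control for exposure to T cells. The strain, age and time points were not stated there. The cells loaded were CFP+ tumor cells, called bystander cells in the labels, sorted after equal numbers of cells per tumor had been stained with hashtag antibodies and pooled. No label ties a hashtag to a condition, so it is not known whether the 6 or the 12 match conditions of the study. No value below can be read as the effect of a treatment.

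Cells were chosen from the 20917 barcodes of the pool by at least 5000 gene UMIs (unique molecular identifiers, each 1 captured transcript), a mitochondrial share of at most 15% and a second hashtag with at least 3 times the UMIs of the third. These steps left 1856, then 1657, then 1514 barcodes, and all 1514 fell into 18 of the 45 possible pairs of the 10 hashtags. Each pair was read as 1 tumor, which is an inference from the tags, and a tumor is named here by its pair, such as 3/9. The 6 tumors on the high side (3/9, 7/10, 1/9, 8/10, 2/8 and 6/7) held 935 cells and the 12 others 579. The sides were chosen by the interferon-gamma genes of these same cells, so interferon genes are given as a description with no test. Cells of all tumors ran through 1 library and share its depth, and p-values below measure the spread between tumors.

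Interferon-gamma is a cytokine made by activated T cells and natural killer cells. It binds its receptor on tumor cells and changes transcription there through short promoter motifs. Known ones are the GAS motif, TTCNNNGAA, and the ISRE, which the IRF family binds, searched here as GAAA, any 2 bases and GAAA again. In melanoma cells the response is known for raising antigen presentation by MHC class I and II, chemokines that draw T cells, and GTPases of cell-autonomous defence.

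One promoter from each class of gene described below shows what these motifs look like, Igtp as a marker of the split and Mpeg1 as a leading gene outside the interferon lists. Each line is the 250 bases before the start site on the plus strand (RefSeq, GRCm38.p6), chr11:58199306-58199555 for Igtp and chr19:12460520-12460769 for Mpeg1, with matches to either motif in capitals.
Igtp: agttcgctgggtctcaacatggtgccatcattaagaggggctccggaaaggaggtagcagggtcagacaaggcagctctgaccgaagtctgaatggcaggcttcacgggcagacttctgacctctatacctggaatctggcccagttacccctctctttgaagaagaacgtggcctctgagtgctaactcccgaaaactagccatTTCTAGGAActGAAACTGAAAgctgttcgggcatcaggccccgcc
Mpeg1: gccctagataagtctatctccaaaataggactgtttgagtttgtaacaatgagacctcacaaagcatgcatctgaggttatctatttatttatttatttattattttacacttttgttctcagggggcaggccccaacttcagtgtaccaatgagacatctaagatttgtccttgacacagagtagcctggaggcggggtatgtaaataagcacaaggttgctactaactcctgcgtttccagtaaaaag
The Igtp stretch holds 1 GAS match and 1 ISRE match close to the start site, and the Mpeg1 stretch holds neither. Of the other markers read in the same way, Gbp2 had 1 ISRE match and Psmb9 had 0 of either motif. A match is a match of letters and not a binding site, and no match says nothing of the factor.

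The 4 markers of the high side were 4.53 to 6.95 times higher in the 6 tumors, and their ranges did not overlap. Iigp1 (chr18:60376027-60392634, GRCm38), an immunity-related GTPase that attacks the vacuoles of intracellular parasites, ran from 894 to 1353 CPM (counts of the gene per 1000000 gene UMIs of the tumor) with a median of 1162 in the 6. In the 12 it ran from 165.5 to 398 CPM with a median of 245. Tumor 6/7, with 894 CPM, was the lowest of the 6 and tumor 5/7, with 398 CPM, the highest of the 12, and these are the members just inside and just outside the split. Igtp (chr11:58199556-58207591), another GTPase of that family, ran from 320.6 to 481.2 CPM (median 402.6) against 40.45 to 106.8 CPM (median 67.1). Gbp2 (chr3:142620602-142638008), a guanylate-binding protein, ran from 430.8 to 604.3 CPM (median 501.9) against 42.42 to 111.1 CPM (median 87.49). Psmb9 (chr17:34181987-34187764), a subunit of the immunoproteasome, ran from 399.2 to 533.5 CPM (median 453.4) against 46.16 to 85.96 CPM (median 67.3). Tumor 6/7 was the lowest of the 6 for all 4 markers, and tumor 3/9 the highest.

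**Figure D1:**
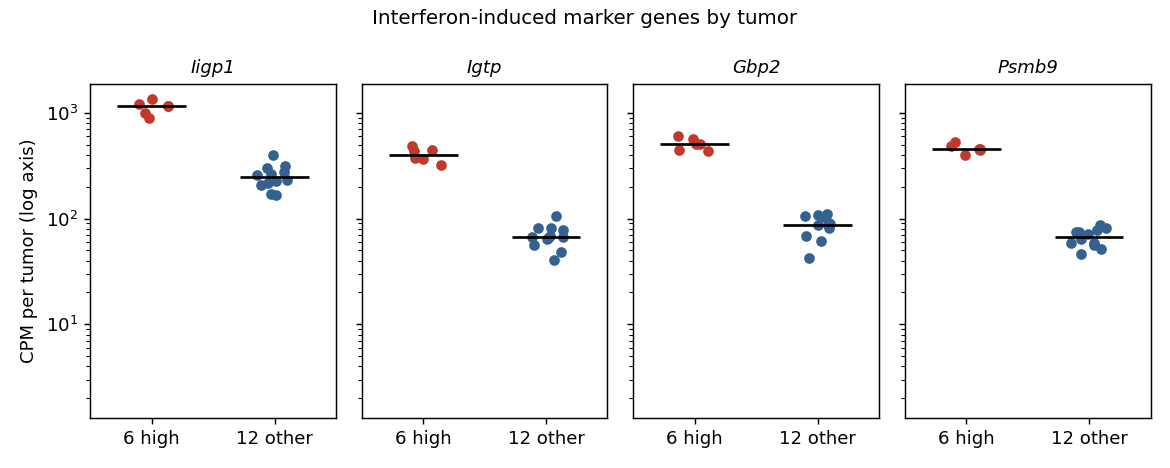
CPM per tumor (log axis) of Iigp1, Igtp, Gbp2 and Psmb9 in the 6 interferon-high and the 12 other tumors, 1 point per tumor, with a line at the median of each side. The lowest of the 6 is above the highest of the 12 in each panel, for Iigp1 at 894 against 398 CPM. These genes chose the sides.

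The split held for most, not all, cells of the 6 tumors. The interferon-gamma list (35 genes matched) had a median over cells of 3628 to 6445 CPM in the 6 and of 688 to 1678 CPM in the 12. Of the 935 cells of the 6 tumors, 565 (60.4%) lay above 4296 CPM, the 95th percentile of the cells of the 12, and within single tumors this share ran from 42.9% to 77.9%. In the 12 tumors, 17 of 579 cells (2.94%) lay above the median cell of the high side.

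Other interferon genes, given as levels only, followed the markers with different sizes. Summed over each list, interferon-gamma genes stood at 4317 to 6203 CPM against 1036 to 1927 CPM, and class I presentation at 14456 to 16533 CPM against 5876 to 7670 CPM. The chemokine list stood at 3201 to 5139 CPM against 678 to 2489 CPM, and the type I interferon list at 30424 to 37916 CPM against 18367 to 26458 CPM. None of these 4 lists overlapped between the sides. The ratio of medians was 3.87 for the interferon-gamma list, whose genes chose the sides, and 1.68 for the type I list. Ifitm3 made up 16.9% of the type I list and was 1.28 times higher. Free RNA held the type I list at 29842 CPM, above the highest of the other tumors, and its part in their level was not tested. Which interferon acted was not tested, and these ratios cannot tell, since the sides were not chosen independently of them. Of all 10225 genes tested, 278 were higher in the 6 without overlap of the sides (2.72%) and 148 lower (1.45%). Of the 214 genes inside the interferon lists, 128 were higher without overlap and 0 lower, and their median log2 fold change was 1.00, against -0.014 over all genes tested.

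Class I genes were abundant on both sides and separated them. B2m, the light chain of class I, stood at 3088 to 3461 CPM against 1453 to 1836 CPM. The heavy chains H2-K1 and H2-D1 stood at 2348 to 2636 CPM against 615.2 to 1099 CPM and at 2289 to 2619 CPM against 736.4 to 1209 CPM. These heavy chains are near-identical in parts, so reads may be split between family members. Of the type I list, the tetherin gene Bst2 was 1.72 times, the ubiquitin-like modifier Isg15 1.69 times and Ifitm3, which blocks viral entry, 1.28 times higher. Isg15 overlapped between the sides, with a lowest tumor of the 6 at 1859 CPM and a highest of the 12 at 2074 CPM.

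Chemokines and class II genes were higher in the 6 but overlapped in part. Ccl2, which attracts monocytes, was separated, at 1102 to 1699 CPM against 67.07 to 524.6 CPM. Cxcl10, a ligand of the receptor CXCR3, stood at 1247 to 2768 CPM against 322.6 to 1869 CPM, and Ccl5 at 311.7 to 578.8 CPM against 7.933 to 609.7 CPM. The class II list stood at 154 to 401 CPM against 25.7 to 450 CPM, and Cd74, the class II invariant chain, at 64.7 to 184.9 CPM against 0 to 160.8 CPM. The overlap came from tumor 2/5, since the next of the 12, tumor 5/7, stood at 60.6 CPM of the class II list. Tumor 2/5 held 1 of 5 kept cells with at least 100 UMIs of the macrophage list. The next cell of the 1514 had 8 such UMIs. Without these 5 cells the class II list stood at 154 to 401 CPM against 25.7 to 40.5 CPM, Cd74 at 64.7 to 184.9 CPM against 0 to 2.44 CPM, and H2-Ab1, a class II beta chain, at 13.96 to 53.5 CPM against 0 to 0.756 CPM. Ifi30, a thiol reductase of the lysosome, overlapped, at 33.52 to 45.21 CPM against 23.68 to 48.24 CPM.

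Promoters of the interferon-list genes that separated the sides held GAS and ISRE matches in larger shares than those of all genes tested. In 300-base promoters (250 bases before and 50 after the start, both strands, windows that hold both motifs counted for each), 20.8% of 101 separated interferon genes held the GAS motif and 39.6% the ISRE. Over the 8145 genes tested with a promoter in the reference table these shares were 8.14% and 3.99%, and 9.55% and 3.99% over all 27025 promoters there. The 193 genes outside the lists that were called higher had 7.25% and 8.81%, and the 198 called lower had 5.56% and 5.05%. These shares are a description without a test. The interferon lists were made of known interferon genes and only separated ones were counted, so their larger shares may follow from that choice.

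Cells of the 6 tumors carried more hashtag antibody, a measure that set no side. The median cell of a tumor had 3529 to 6131 hashtag UMIs (median 4017) in the 6 and 542.5 to 1390 (median 914) in the 12, a ratio of 4.39. An exact permutation test of the difference of medians over the 18 tumors, two-sided, gave p = 0.00226 (adjusted over 4 measures, 0.00453), and all 6 tumors were above all 12. Taken by single tag, each of the 8 tags present on both sides had a median 4.26 to 6.06 times higher in cells of the high side. The other 2 tags, 4 and 5, occurred only in the 12, with medians of 341 and 195.5 UMIs. The part of these tags in the whole difference was not tested. As background, the mouse hashtag antibodies of this type bind CD45 and MHC class I, and CD45 (Ptprc) stood at 0.917 CPM in the summed cells of the 6 and 0.633 CPM in those of the 12. Across the cells of a tumor, hashtag UMIs and class I CPM had a Spearman rho of 0.39 to 0.66 in the 6 and 0.46 to 0.86 in the 12, positive in all 18. With the total of gene UMIs, rho ran from -0.37 to 0.16. Cells of a tumor share staining and library, so these are descriptions with no p, and what the hashtag counts owe to class I protein was not tested. Class I genes are in the interferon lists, so the hashtag measure may not be independent of the split. Its p says only that it went with the split.

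**Figure D2:**
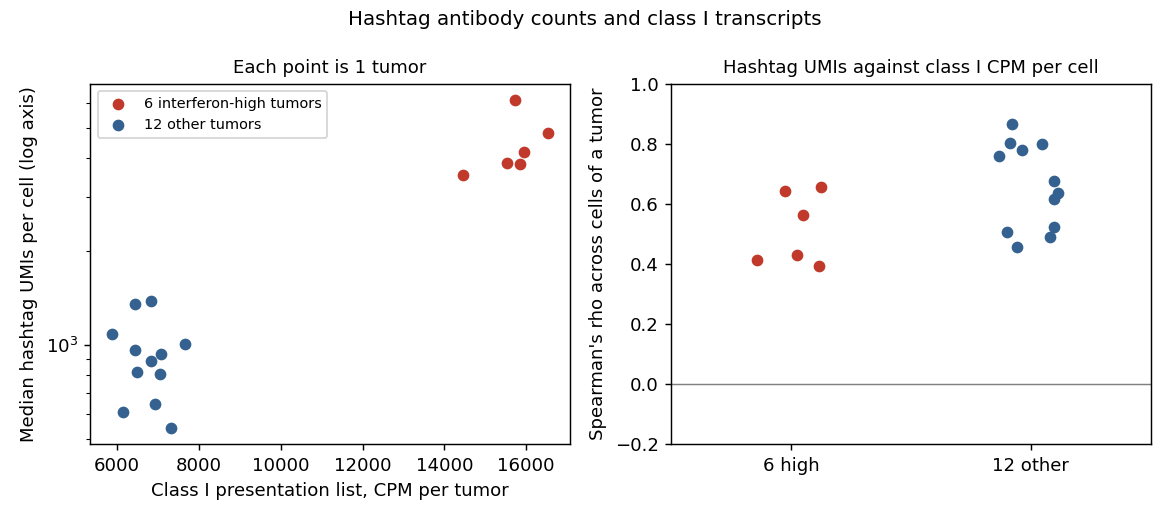
Left, median hashtag UMIs per cell (log axis) against the class I list in CPM, 1 point per tumor. The 6 interferon-high tumors sit at 3529 to 6131 hashtag UMIs and the 12 others at 542.5 to 1390. Right, Spearman's rho of hashtag UMIs with class I CPM across the cells of each tumor, positive in all 18.

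The 6 tumors also gave more cells. They held 110 to 258 cells (median 141) and the 12 held 21 to 84 (median 43.5), although equal cell numbers had been pooled before the sort (exact permutation test, two-sided, p = 0.00226, adjusted 0.00453). The share of CFP+ cells in each tumor is not given in the sources used here. The hashtag filter moves with the same measure, since the 143 barcodes that failed it had a median of 390 hashtag UMIs. With a ratio of 10 in place of 3, the medians were 136 and 30 cells. Gene UMIs per cell did not pass the test, with tumor medians of 44320 to 47660 against 35340 to 49160 (exact permutation p = 0.0510, adjusted 0.0680). Of the tag-pair barcodes, 9.63% to 14.2% exceeded the mitochondrial limit in the 6 and 1.37% to 21.1% in the 12 (exact permutation p = 0.493).

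Markers of the melanocyte lineage were mostly absent, and those of other cell types overlapped between the sides. Of the melanocyte markers, Tyr and Tyrp1, enzymes of pigment synthesis, had 0 UMIs in the 1514 cells, Sox10 had 2, Mlana 1, Dct 4 and Pmel 15, while Pax3 stood at 31.9 CPM in the cells of the 6 and 35.0 CPM in those of the 12, and Mitf at 3.18 and 5.51 CPM. Slc24a5, a cation exchanger of melanosomes, was the highest gene of the longer melanocyte list, at 36.3 to 51.1 CPM in the 6 and 37.5 to 61.3 CPM in the 12. The T cell list stood at 0.606 to 1.95 CPM in the 6 and 0 to 2.88 CPM in the 12, with Cd3e, Cd3g and Cd8a at 0. The macrophage list reached 122 CPM in tumor 6/7 and 171 CPM in tumor 2/5, and without the 5 cells named above it stood at 2.68 to 4.30 CPM against 0.945 to 8.13 CPM. The fibroblast list, 85.1% of it Col3a1, overlapped at 799 to 951 CPM against 452 to 1452 CPM, and the endothelial list, mostly Cdh5, at 36.8 to 67.5 CPM against 30.4 to 69.7 CPM. The pericyte and smooth muscle list stood at 0.518 to 1.82 CPM against 0 to 16.6 CPM, with 16.6 CPM in tumor 5/7 and 13.3 CPM in tumor 2/4. Free RNA in barcodes under 800 UMIs held the interferon-gamma list at 3543 CPM, above every tumor of the 12, and its part in their level was not tested.

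Outside the interferon lists, 234 of 10011 genes were called higher in the 6 (2.34%) and 277 lower (2.77%), at an adjusted p under 0.05 and at least a 1.5-fold difference in edgeR's quasi-likelihood test on the summed UMIs of each tumor, with Benjamini-Hochberg adjustment over all genes. At any fold, 871 (8.70%) were higher and 1047 (10.5%) lower. A p here says whether a gene went with the split. Of the called genes, 98 were at least 2-fold higher and 90 at least 2-fold lower, and 78 and 47 had sides that did not overlap. The lists hold known interferon genes and are not complete, so some genes outside them may respond to interferon too. In sums per tumor, fewer cells of a kind and less RNA per cell cannot be told apart.

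Among called genes outside the lists with a mean of at least 20 CPM over the 18 tumors and sides that did not overlap, the largest difference belonged to AA467197 (chr2:122636986-122641191), which encodes NMES1, a small mitochondrial protein. It stood at 136.8 to 248.6 CPM (median 217.1) in the 6 and at 8.388 to 36.3 CPM (median 16.42) in the 12. All 6 tumors were above all 12, and the gene was 11.1-fold higher (log2 fold change 3.47 ± 0.19 SE, edgeR adjusted p = 1.32e-12). Next among these was Mpeg1 (chr19:12460779-12465283), a pore-forming protein best known from macrophages and induced by interferon-gamma there, at 51.95 to 77.91 CPM against 2.268 to 10.77 CPM (9.55-fold, adjusted p = 5.63e-14). Without the 5 macrophage-rich cells it stood at 47.3 to 77.9 CPM against 2.27 to 8.97 CPM, so its difference was as large in the remaining cells. Free RNA held Mpeg1 at 44.99 CPM, above every tumor of the 12, and its part in their level was not tested.

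Secreted proteins and receptors followed. Follistatin (Fst), which binds and blocks activins, stood at 57.12 to 137.4 CPM (median 97.85) against 3.545 to 48.32 CPM (median 12.87) and was 6.25-fold higher (adjusted p = 2.03e-07). In cells poor in cycle transcripts its log2 fold change was 1.41 in place of 2.64, and it was still called. Il1rl1, the receptor of interleukin-33, stood at 264.4 to 586.9 CPM against 21.93 to 216.4 CPM (4.45-fold, adjusted p = 3.41e-06). Tumor 8/10 gave its highest value, and the other 5 lay between 264.4 and 334.4 CPM. Apod, a lipocalin that carries small lipids, stood at 186.9 to 365.6 CPM against 23.68 to 114.6 CPM (3.91-fold, adjusted p = 9.89e-08). With an equal number of cells per tumor its log2 fold change was 1.12 in place of 1.97, and it was still called. Csf1, the growth factor of macrophages, was 2.00-fold higher, at 48.2 to 55.32 CPM against 19.73 to 33.73 CPM (adjusted p = 1.49e-09). None of these 4 overlapped between the sides, which the rule for naming required of Fst, Il1rl1 and Apod.

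The remaining higher genes at that level mostly encode intracellular proteins. The kinase gene Melk was 3.62-fold higher, at 83.55 to 124.9 CPM against 18.09 to 38.41 CPM (adjusted p = 2.47e-12). Its log2 fold change was 2.97 in cells poor in cycle transcripts and 1.36 in cells rich in them, against 1.85 in all cells. Snx10, a sorting nexin of endosomes, was 3.06-fold, Ttc39c 2.53-fold and the stress transcription factor gene Ddit3 (CHOP) 2.39-fold higher. The symbol Ddit3 occurs for more than 1 feature of the deposited list, and the value is of the feature ENSMUSG00000025408. AU020206 was 2.25-fold higher, the gluconate kinase gene Idnk 2.15-fold, Enc1, which binds actin, 2.12-fold, Vwa5a 2.11-fold and Rmdn3, which tethers the endoplasmic reticulum to mitochondria, 2.03-fold. Pnp, a purine nucleoside phosphorylase, was 2.09-fold higher, and its reads may be split with the closely similar Pnp2. In each of these genes the 6 tumors lay above the 12, which the rule for naming required. Their adjusted p-values ran from 2.47e-12 for Melk to 3.69e-07 for Enc1.

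**Figure D3:**
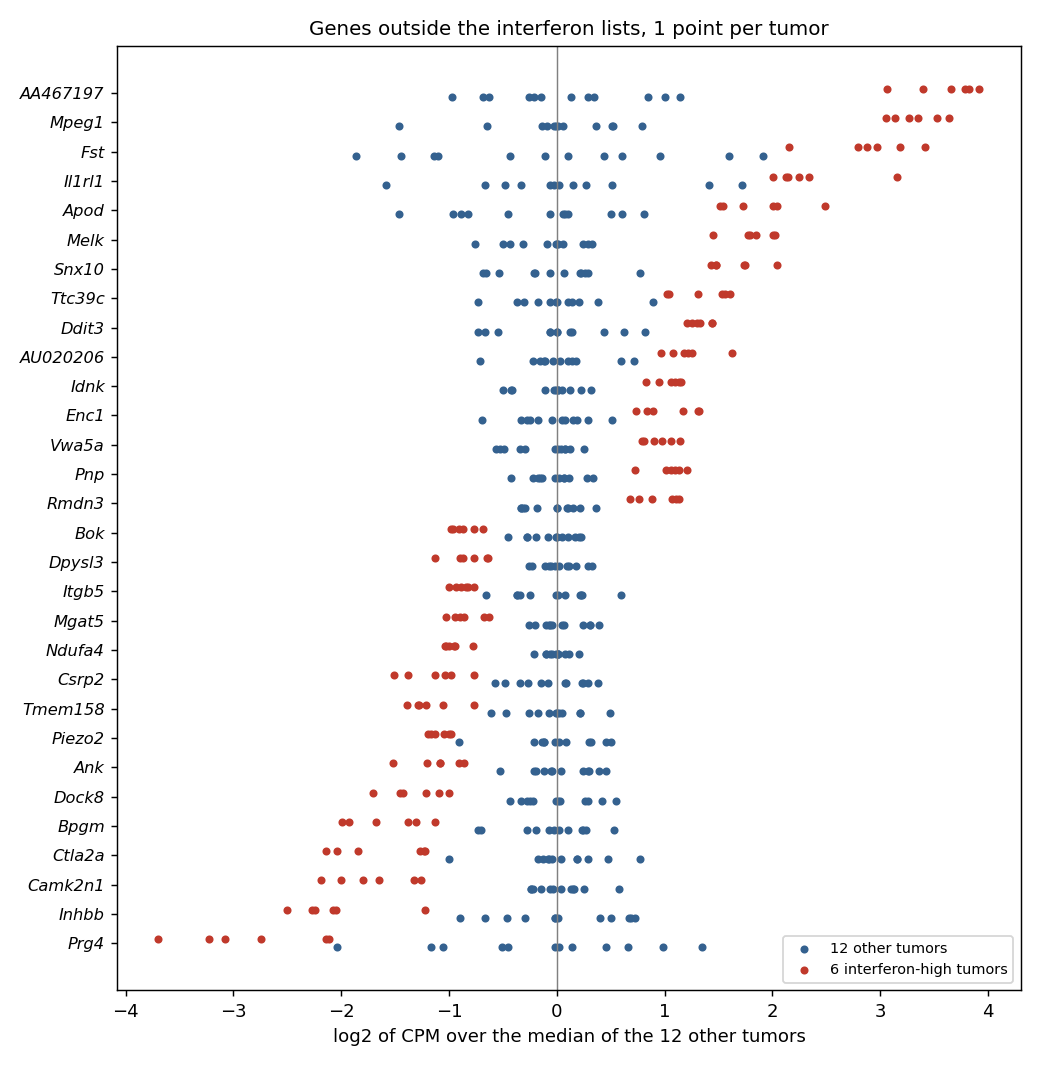
For the 15 highest and 15 lowest genes outside the interferon lists with a mean of at least 20 CPM, the log2 of each tumor's CPM over the median of the 12 other tumors, 1 point per tumor. The 6 interferon-high tumors lie on 1 side of the 12 for each gene, which the rule for naming required, from 11.1-fold higher for AA467197 to 7.24-fold lower for Prg4.

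The transcript of Ndufa4, which encodes a subunit of the last complex of the respiratory chain, was lower in the 6 tumors, where the AA467197 transcript was higher. No protein was measured. As background, NMES1 is a relative of NDUFA4 that can take its place in that complex, and the NMES1 transcript carries the microRNA miR-147, which is known to target the Ndufa4 transcript. In the RefSeq table the Mir147 hairpin lies at chr2:122640803-122640881 on the plus strand, inside an exon of AA467197. Ndufa4 (chr6:11900292-11907497) stood at 233.6 to 278.9 CPM (median 242.9) in the 6 and at 412.4 to 552 CPM (median 478) in the 12, without overlap. It was 1.90-fold lower (log2 fold change -0.93 ± 0.05 SE, edgeR adjusted p = 4.19e-12). Of the 75 nuclear oxidative phosphorylation genes tested it was the only 1 called in either direction, and their median log2 fold change was -0.0011. Counted at any fold, 10 of the 75 were higher and 5 lower, against 8.70% and 10.5% of genes outside the interferon lists. Tumor 6/7 had the lowest AA467197 of the 6 (136.8 CPM) and the highest Ndufa4 (278.9 CPM).

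The pair also differed between cells of the same tumor. Across the cells of each of the 6 tumors, AA467197 and Ndufa4 CPM had a Spearman rho of -0.49 to -0.32, negative in 6 of 6. In the 12, where 25.0% to 46.7% of cells had a UMI of AA467197 against 68.7% to 83.6% in the 6, rho ran from -0.28 to 0.22 and was negative in 8. Cells with a UMI of AA467197 had Ndufa4 at 202 to 236 CPM in the 6 tumors and cells without one at 285 to 400 CPM. In the 12 tumors these ranges overlapped, at 403 to 514 CPM and 418 to 593 CPM. Free RNA held AA467197 at 186.1 CPM, above every tumor of the 12, and Ndufa4 at 436.9 CPM, above every tumor of the 6. The part of free RNA in the values of these cells was not tested. Cells share library and depth, so these are descriptions with no p, and a difference in rho between the sides was not tested. A 3' library reads the NMES1 transcript and not the mature microRNA. Whether either acts on Ndufa4 in these cells was not tested. Cells of the 6 tumors also differed in their level of interferon-gamma genes, as given above, and the part of this in the rho was not tested.

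**Figure D4:**
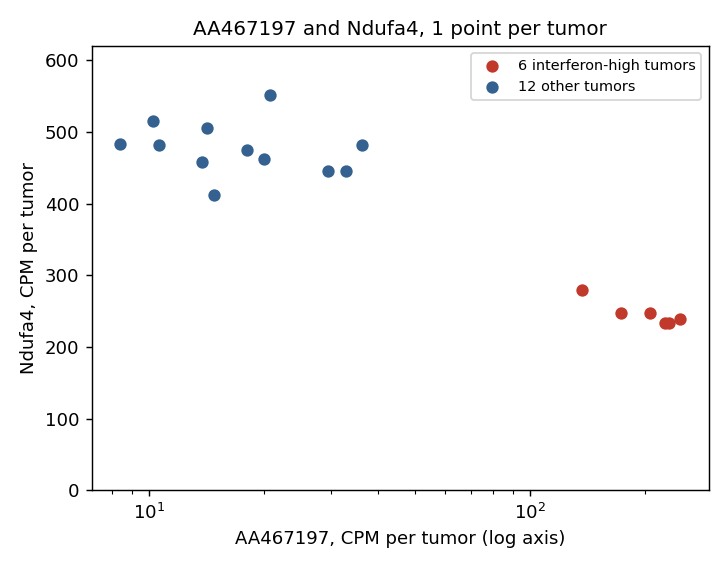
Ndufa4 against AA467197 (log axis), both in CPM, 1 point per tumor. The 6 interferon-high tumors lie at 136.8 to 248.6 CPM of AA467197 and 233.6 to 278.9 CPM of Ndufa4, and the 12 others at 8.388 to 36.3 CPM and 412.4 to 552 CPM.

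The genes lower in the 6 included secreted and matrix proteins. Prg4 (chr1:150449412-150466165), the lubricating proteoglycan of joints, stood at 5.323 to 15.91 CPM (median 9.252) against 16.77 to 175.3 CPM (median 68.92) and was 7.24-fold lower (log2 fold change -2.86 ± 0.36 SE, edgeR adjusted p = 2.63e-06). Its lowest value among the 12, 16.77 CPM in tumor 1/3, was close to the highest of the 6, 15.91 CPM. Its log2 fold change was -4.51 with an equal number of cells per tumor and -2.17 in cells rich in cycle transcripts. Inhbb, the beta B subunit of activin B, stood at 4.404 to 10.65 CPM against 13.4 to 41.11 CPM (4.08-fold lower, adjusted p = 3.82e-07). Follistatin, which binds activins, moved the other way, as given above.

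The other lower genes have varied roles. Camk2n1, an inhibitor of the calcium-dependent kinase CaMKII, stood at 8.185 to 15.54 CPM against 31.49 to 55.76 CPM (3.22-fold lower, adjusted p = 5.81e-10). The protease inhibitor gene Ctla2a was 3.16-fold lower and the red cell metabolism enzyme gene Bpgm 2.93-fold. Dock8, an exchange factor of CDC42, was 2.44-fold lower, and Ank, which moves pyrophosphate out of cells, 2.21-fold. The ion channel gene Piezo2, which senses mechanical force, was 2.20-fold lower, at 29.41 to 34.1 CPM against 35.92 to 95.04 CPM. Tmem158 was 2.15-fold, the LIM protein gene Csrp2 2.12-fold, Mgat5, which branches N-glycans, 1.86-fold, and the integrin gene Itgb5 1.82-fold lower. Dpysl3, a cytoskeletal protein of neurites, was 1.77-fold and the BCL2 family gene Bok 1.74-fold lower. Of these genes, adjusted p-values ran from 5.81e-10 for Camk2n1 to 5.35e-06 for Itgb5. The 6 tumors lay below the 12 in each, which the rule for naming required.

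Gene lists of other processes moved little beside the interferon lists. Their medians are set beside the median log2 fold change of -0.018 over all genes outside the interferon lists, and their calls beside the shares of 2.34% higher and 2.77% lower given above. Members that are below a mean of 20 CPM or beyond the third of a list were named after their values were seen.

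**Figure D5:**
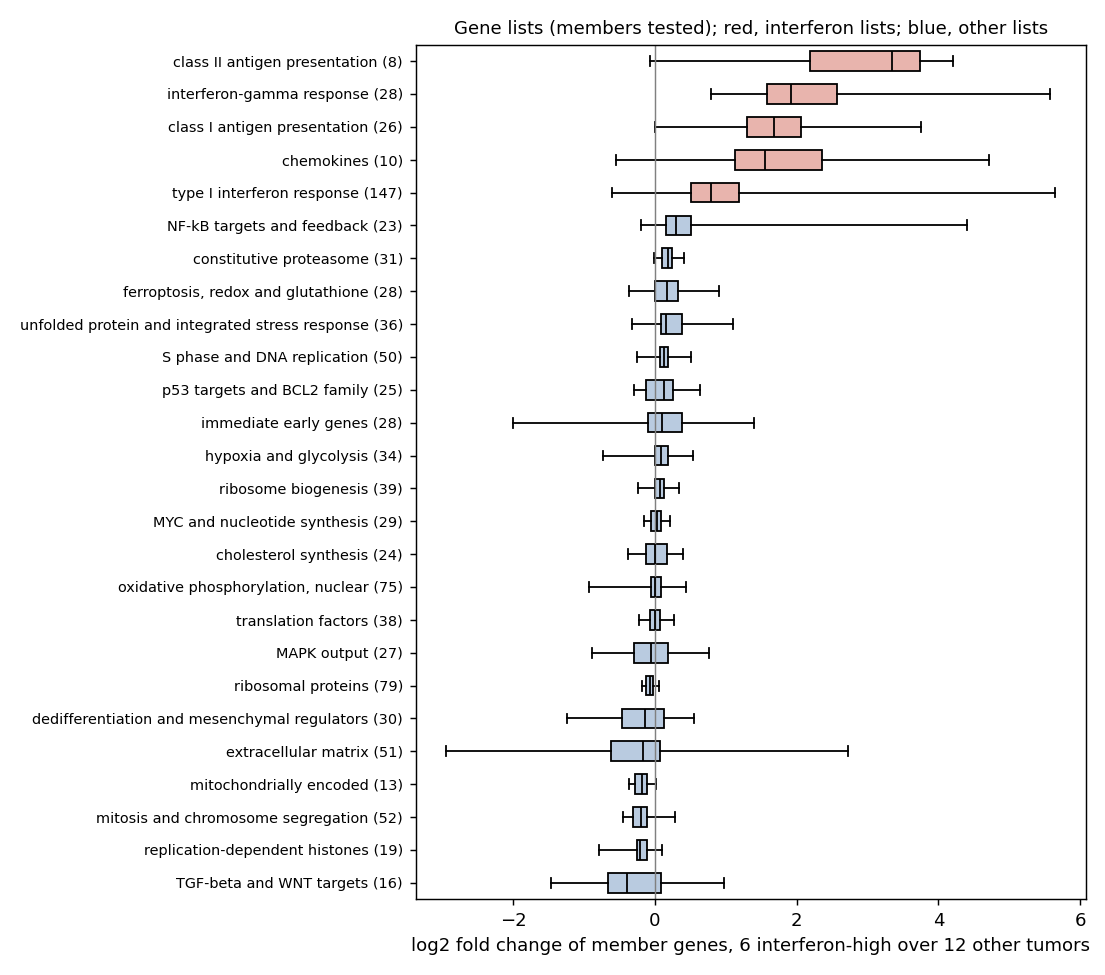
Log2 fold change, 6 interferon-high over 12 other tumors, of the tested members of each list (number in brackets), with the box at the quartiles, a line at the median and whiskers at the lowest and highest member. The interferon lists, which are related to the choice of the sides, have medians of 0.80 to 3.35, and the other lists of -0.40 to 0.29.

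Matrix genes were lower more often than higher. Of 51 extracellular matrix genes tested, 13 were called lower and 2 higher, with a median log2 fold change of -0.16. Mgp, which inhibits calcification, stood at 6.898 to 118.3 CPM (median 16.15) against 6.701 to 610.6 CPM (median 194.1), so the sides overlapped widely (7.69-fold lower, edgeR adjusted p = 0.00146). Tumor 8/10 with 118.3 CPM was far above the other 5 of its side, and tumor 2/5 with 6.70 CPM was the lowest of the 12. Without tumor 8/10 the log2 fold change of Mgp was -4.07 in place of -2.94, and it was -4.52 in cells rich in cycle transcripts and -1.82, not called, with an equal number of cells per tumor. Itga1, an integrin that binds collagen, was 2.97-fold lower, at 12.09 to 38.71 CPM against 17.42 to 135.6 CPM. The called collagens Col4a2, Col5a2, Col6a1, Col6a2, Col6a3, Col11a1 and Col18a1 had log2 fold changes between -1.21 for Col6a2 and -0.62 for Col4a2. The higher ones were the proteoglycan gene Vcan, at 144 to 211 CPM against 76.5 to 163 CPM, and Col1a2, at 1.30 to 63.5 CPM against 1.13 to 8.51 CPM. The count lower was 8 with limma on cell means and 5 in cells rich in cycle transcripts.

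TGF-beta and WNT genes had the lowest median of all lists, -0.40. Of 16 tested, 5 were called lower and 1 higher, and the count lower was 3 without tumor 3/9 and also 3 without tumor 6/9. Tgfbi, a matrix protein induced by TGF-beta, was 2.35-fold lower, at 38.2 to 58.16 CPM against 55.61 to 158.2 CPM, and the Notch target gene Hes1 1.71-fold lower. Pmepa1, which restrains TGF-beta signalling, stood at 74.0 to 126 CPM against 118 to 197 CPM. Ltbp2, a latent TGF-beta binding protein, and the WNT effector gene Lef1 were called lower at levels under 15 CPM. Ltbp1, which stores latent TGF-beta in the matrix, was the 1 called higher, at 107.9 to 132.2 CPM against 39.22 to 90.46 CPM without overlap (1.97-fold, adjusted p = 8.57e-08). Among 30 dedifferentiation and mesenchymal genes, Tgfbi, the ligand gene Tgfb1 and the receptor gene Pdgfrb were called lower and 0 higher. Any part of pericytes in the level of Pdgfrb was not tested. Tgfb1 was 1.82-fold lower, at 17.98 to 27.33 CPM against 20.72 to 64.69 CPM.

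NF-kB genes were shifted upward, with 4 of 23 called higher, 0 lower and a median of 0.29. Besides Csf1, these were Nfkbie, an inhibitor of NF-kB, Ripk2, a kinase of pathogen sensing, and Lcn2, an iron-binding lipocalin. Lcn2 stood at 5.19 to 11.5 CPM against 0 to 0.987 CPM, a low level without overlap. Of 27 genes of MAPK output, the pathway downstream of NRAS, 2 were called higher and 3 lower. The feedback inhibitor genes Spry1, Spry4 and Dusp4 were lower, with Spry1 at 47.58 to 69.78 CPM against 45.56 to 159.5 CPM (1.85-fold, adjusted p = 0.000169). The growth factor gene Ereg and the cytokine gene Lif were higher, and Ereg (1.71-fold, adjusted p = 0.0248) overlapped, at 34.82 to 88.37 CPM against 19.27 to 115.9 CPM. Without tumor 1/9 neither was called, and without tumor 8/10 or 6/7 Ereg was not.

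Stress lists held few calls, and most of these counts moved by 1 or more with the cells or tumors used. Of 36 genes of the unfolded protein and integrated stress response, Trib3 and Vldlr were called higher and 0 lower. At any fold 9 were higher and 2 lower, against 8.70% and 10.5% of genes outside the interferon lists. Ddit3, given above, is not counted among the 36 because of its doubled symbol. Of 28 ferroptosis and redox genes, the heme oxygenase gene Hmox1 and Aifm2, a suppressor of ferroptosis, were called higher and 0 lower. Of 28 immediate early genes, Ier5, Hspa1a and Hspa1b were higher and Egr3 lower. Hspa1a and Hspa1b are near-identical copies whose reads may be split. Among 25 genes of p53 and BCL2 the death agonist gene Bid was the 1 called. The hypoxia gene Egln3 (of 34) and the histone gene Hist1h4h (of 19) were called lower.

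The constitutive proteasome shifted as a group by a small amount. Its 31 genes had a median log2 fold change of 0.18, 30 were above 0, and 18 passed an adjusted p of 0.05 in the higher direction with 0 lower, against 8.70% of genes outside the lists, but none reached 1.5-fold. Psmb2, a core subunit, stood at 427.5 to 473.8 CPM (median 455.4) against 308.8 to 370.4 CPM (median 350.0). Summed, these genes stood at 9550 to 10302 CPM against 8274 to 9283 CPM, without overlap.

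Ribosomal protein genes shifted down by a smaller amount still. Of 79, 30 were lower at any fold and 0 higher, against 10.5% of genes outside the lists, with a median log2 fold change of -0.07. Rps3a1 stood at 3458 to 3632 CPM against 3831 to 4064 CPM. Without overlap of the sides, 27 of the 79 were lower, against 1.45% of all genes tested. The summed level was 243340 to 249400 CPM against 251730 to 273140 CPM without overlap. Free RNA held the ribosomal protein genes at 290470 CPM, above every tumor of both sides. CPM fall where other transcripts take a larger share of the total. The part of either in the shift was not tested. Translation factors had a median of -0.0020, with 4 higher and 8 lower of 38 at any fold, against 8.70% and 10.5% of genes outside the interferon lists. Of 13 mitochondrially encoded genes, 8 were lower at any fold, against the same 10.5%, with a median of -0.18. In this group mt-Cytb stood at 2843 to 3515 CPM against 3443 to 4181 CPM.

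The mitosis and replication lists had small medians of opposite sign. Of 52 mitosis genes 13 were lower at any fold and 0 higher (median -0.20), with Mki67, the proliferation marker, at 47.85 to 97.93 CPM against 82.35 to 125.5 CPM. Of 50 replication genes 6 were higher at any fold and 0 lower (median 0.14). Over genes outside the interferon lists, 8.70% were higher and 10.5% lower at any fold, and the replication count higher was near that share. No member of the mitosis or replication list was called at 1.5-fold. Both medians changed sign in another selection of cells, to 0.01 for mitosis with an equal number of cells per tumor and to -0.09 for replication in cells low in cycle transcripts. Cholesterol synthesis (24 genes), ribosome biogenesis (39), MYC and nucleotide synthesis (29) and the 4 melanocyte genes that passed the filter had 0 calls in either direction.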

How the data were processed

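The values deposited by the authors are UMI counts, unnormalized, of genes and hashtags in 1 matrix. Cell Ranger is given as 6.1.2 per the file headers but as 2.1.1, with GRCm38, per the submitters' processing notes, and this was not reconciled. Kept cells held 71564416 gene UMIs, with 1013656 to 12322849 per tumor. Counts were summed per tumor (Python 3.11.15, numpy 2.4.6) and fitted with edgeR 4.0.16 in R 4.3.3 (filterByExpr, TMM, quasi-likelihood test). CPM are scaled by a tumor's total of gene UMIs. Coordinates are from GENCODE M21. No doublet caller was run. Barcodes with tags of several tumors can fail the hashtag ratio, but how many do was not tested. Such a barcode can pass where 1 of its cells carries far more hashtag than the other. The second tag had a tumor median of 1483.5 to 2091 UMIs in the 6 and 181 to 455 in the 12. Doublets within a tumor are not seen. The fit was checked on simulated counts.

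Members, sides, lists and tests were chosen with earlier results of these data known. Of 279 genes in the interferon lists, 265 matched the feature list, and genes of doubled symbol were left out of the lists. Named genes are the 4 markers, the 15 highest and 15 lowest called genes outside the interferon lists that did not overlap and had a mean of at least 20 CPM (without Gm, Rik, Rpl, Rps and mt- symbols), up to 3 called members of each other list at that level, and the 3 most abundant members of each interferon list. One of these is not reported here. Alternatives changed the cell filters, scaling, tool (DESeq2 1.42.0, or limma 3.58.1 on log2(CPM + 1) of cell means), the low-count filter, the cells and the tumors.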

Additional observations from a re-analysis of the deposited data

Results flagged for a closer look

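Of 89 measures examined within the 6 interferon-high tumors, 9 had 1 tumor far from the other 5, by the gap to its neighbour over the whole range. Chance flags about 1 in 20 such groups. Tumor 6/7 was the lowest for 3 interferon genes and the highest for Ndufa4. It had Bst2 at 3902 CPM (others 4684 to 4898), Isg15 at 1859 CPM (others 2371 to 2619), B2m at 3088 CPM (others 3321 to 3461) and Ndufa4 at 278.9 CPM (others 233.6 to 247.6). It also had the lowest AA467197, 136.8 CPM. Tumor 8/10 had the highest Il1rl1, at 586.9 CPM (others 264.4 to 334.4), and the highest Mgp, at 118.3 CPM (others 6.898 to 25.16). Tumor 3/9 had the highest AU020206, at 59.87 CPM (others 37.8 to 46.04). Inhbb was highest in tumor 7/10, at 10.65 CPM (others 4.404 to 6.005). Tumor 2/8 held the most cells, 258 (others 110 to 163).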

How the results depend on the processing

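No paired analysis was possible because the 18 tumors are not GEO samples and their tag pairs carry no replicate number that links the sides. Against 234 genes called higher and 277 lower outside the interferon lists, the count higher was 376 without a filter on low counts and 133 with an equal number of cells per tumor, where 145 of the 234 could be tested. The count lower was 172 with limma on cell means and 158 in cells rich in cycle transcripts, where 194 of the 277 could be tested. Apart from the smaller number of genes tested in those 2 selections of cells, the cause was not tested. In the other settings both counts stayed within 1.5 times. Leaving out 1 tumor at a time gave 208 to 262 higher and 247 to 303 lower. Ifi30 reversed, to a log2 fold change of -0.081, in cells poor in cycle transcripts. Of the genes given with a test, Ereg was not called in 7 settings, among them without tumor 1/9, 8/10 or 6/7 (adjusted p = 0.0597, 0.0737 and 0.0516 in edgeR), and Mgp (adjusted p = 0.201) and Hes1 (0.0514) were not called with equal cell numbers. Ier5 and Spry4 fell under 1.5-fold in cells rich in cycle transcripts. Counts of list members called moved by over 1.5 times in some settings, to at most 7 for lists with up to 5 called, and without tumor 8/10 dedifferentiation genes called lower were 5 in place of 3. Among counts of 1 to 3 called higher, MAPK output had 1 without tumor 3/9, 4/8, 4/9, 5/7 or 6/10 in place of 2, ferroptosis genes 1 without 3/9, 1/9 or 6/10 in place of 2, and matrix genes 1 without 6/7 or 1/2 in place of 2. TGF-beta and WNT genes had 2 without 6/10 in place of 1, and dedifferentiation genes 1 without 6/7, 2/5 or 5/7 in place of 0. Leaving out the 5 macrophage-rich cells was chosen after seeing the data and gave 231 higher and 283 lower. Without tumor 2/5 (among the 12), the median log2 fold change of the class II list was 5.96 in place of 3.35. Tumor 1/3 has 21 cells, and 6 of the tumors have under 50, which limits low genes. The hashtag and cell number results passed the test in all 4 settings of the cell filters.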
